A study of Bos taurus with 4 samples.

Results

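The genes described here encode the machinery of oxidative phosphorylation, and their transcripts were measured in cattle (Bos taurus) embryos in which KDM5 histone demethylase genes had been targeted by small interfering RNAs (siRNAs). Members were taken by name from the deposited table of FPKM values (fragments per kilobase per 1000000 mapped fragments), after each RefSeq accession had been given its bovine gene symbol. Symbols starting with NDUF, UQCR, COX followed by a digit, or ATP5 were kept, together with SDHA, SDHB, SDHC, SDHD, CYC1 and CYCS. This gave 102 genes, each with 1 transcript, of 14002 genes with a symbol. They comprise 37 subunits of complex I, 4 of complex II, 9 of complex III, 17 of complex IV and 17 of complex V, 16 assembly factors, the ATP synthase inhibitor ATP5IF1 and the electron carrier CYCS. NDUFA4 and its paralog NDUFA4L2 carry complex I names but were placed with complex IV, where NDUFA4 is now known to reside. The reference table holds 110 symbols that match the rule, and COX1, COX2, COX3, COX5A, COX7C, COX8C, NDUFAF8 and the pseudogene COX7ALP1 were not analysed here. The rule uses names alone, but it was chosen with earlier results of these data known.

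Polyadenylated RNA was sequenced from whole embryos of the 8- to 16-cell stage, collected on day 3 after insemination. All zygotes had been injected, either with negative control siRNAs (NC, the controls, n = 2 libraries) or with siRNAs against KDM5A, KDM5B and KDM5C (KDM5_KD, the knockdown, n = 2 libraries). For the second knockdown library the title says Kdm5, whereas the treatment field lists KDM6A, KDM6B and KDM6C as targets. The labels do not say whether replicates came from separate collections of embryos, so p-values measure only the spread between these libraries, which may be technical.

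In oxidative phosphorylation, complexes I and II feed electrons from NADH and succinate into ubiquinone, complex III passes them to cytochrome c, and complex IV passes them to oxygen. Complexes I, III and IV pump protons out of the mitochondrial matrix, and complex V, the ATP synthase, uses the returning protons to make ATP. Mammalian embryos of early cleavage stages rely on mitochondria inherited from the oocyte and make ATP largely by this route. All members analysed here are encoded in the nucleus.

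The siRNA targets KDM5A and KDM5C, and KDM6A, were read first as a check of the labels. KDM5B, KDM6B and KDM6C were not analysed here, so the check does not cover them. KDM5A was at 28.4 and 27.1 FPKM in controls, against 10.5 and 10.1 FPKM after knockdown, where it fell by 1.35 on the log2(FPKM + 1) scale (SE 0.142, limma adjusted p of 0.0333). Leaving out NC replicate 2 or either knockdown library left KDM5A short of the threshold, with limma adjusted p between 0.0625 and 0.232. KDM5C was at 28.1 and 40.6 FPKM in controls, against 15.1 and 17.8 FPKM after knockdown (log2 difference -0.999, limma adjusted p of 0.123). KDM6A overlapped between groups, at 7.63 and 11.3 FPKM in controls, against 7.90 and 9.29 FPKM after knockdown. Markers of the oocyte and early embryo were present in every library, with 11 transcripts of 10 genes (of 14 listed). They summed to 489 and 366 FPKM in NC and to 583 and 645 FPKM in KDM5_KD. Of the 11, 5 lay higher in both KDM5_KD libraries (background 35.1%) and 0 lower (background 15.6%), and the others overlapped between groups. Transcripts of cumulus and granulosa cells, which surround the oocyte, summed to 29.9 and 17.0 FPKM in controls, against 43.3 and 46.9 FPKM after knockdown. Of the 14 on that list, 8 were tested. Of these, 6 lay higher in both KDM5_KD libraries, as did 35.1% of all transcripts tested. Among the 6 were HAS2, INHA and CYP11A1. INHA, with a mean below 1 FPKM in controls, reached the mean of 1 FPKM needed for the test only through the knockdown libraries. Its place in this count therefore depends on that filter. AMH and TNFAIP6, also tested, overlapped between groups, with log2 differences of -0.421 and -0.0547. Among the untested genes of that list, FOXL2 was at 0.660 and 0.491 FPKM in controls, against 1.074 and 1.254 FPKM after knockdown. PTX3 and AMHR2 were at or below 0.353 FPKM in all 4 libraries, and FSHR, LHCGR and CYP19A1 at or below 0.0602 FPKM. Of the other cell type markers, the 8 sperm genes summed to at most 1.75 FPKM, and the 5 leukocyte genes to 23.0 and 33.9 FPKM in NC and to 21.8 and 26.6 FPKM in KDM5_KD, mostly CSF1R.

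Oxidative phosphorylation transcripts were abundant. Of the 102 members, 99 reached a mean of 1 FPKM over the 4 libraries and entered the test. Their median level was 30.1 FPKM (29.3 FPKM over all 102), against 10.5 FPKM for all 8970 transcripts tested, and 52 of the 99 lay in the highest of 4 equal level bins. With microRNA transcripts left out of the sums, the members held 2.02% and 2.22% of all FPKM in controls, against 2.18% and 2.20% after knockdown. The groups overlapped in this share.

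The median level was highest for complex V, at 82.5 FPKM. For complex IV it was 76.6 FPKM over the 14 tested genes and 35.3 FPKM over all 17, since 3 isoforms were at or near 0. The medians were 23.6 FPKM for complex I, 27.9 for complex II and 27.5 for complex III, and 9.62 FPKM for the assembly factors, which help to build the complexes but do not stay in them. Within a complex the levels were far from equal, although most subunits are present in single copies. In complex I they ran from 6.46 FPKM for NDUFS3, a core subunit of the ubiquinone-binding arm, to 345 FPKM for NDUFB2, a small membrane subunit. In complex V they ran from 25.3 FPKM for ATP5F1D, the delta subunit of the central stalk, to 616 FPKM for ATP5MK, a small membrane subunit. Complex III ranged from UQCRQ (9.37 FPKM) to UQCR10 (103 FPKM). Complex II had the narrowest range, from SDHC (14.4 FPKM) to SDHA (31.6 FPKM). FPKM is a value per length, but how well it compares genes of unlike length, above all the shortest, was not checked, so these ranges are approximate. Many of these genes also have processed pseudogenes, among which reads may be divided, and this makes the level of a single row uncertain.

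**Figure D1:**
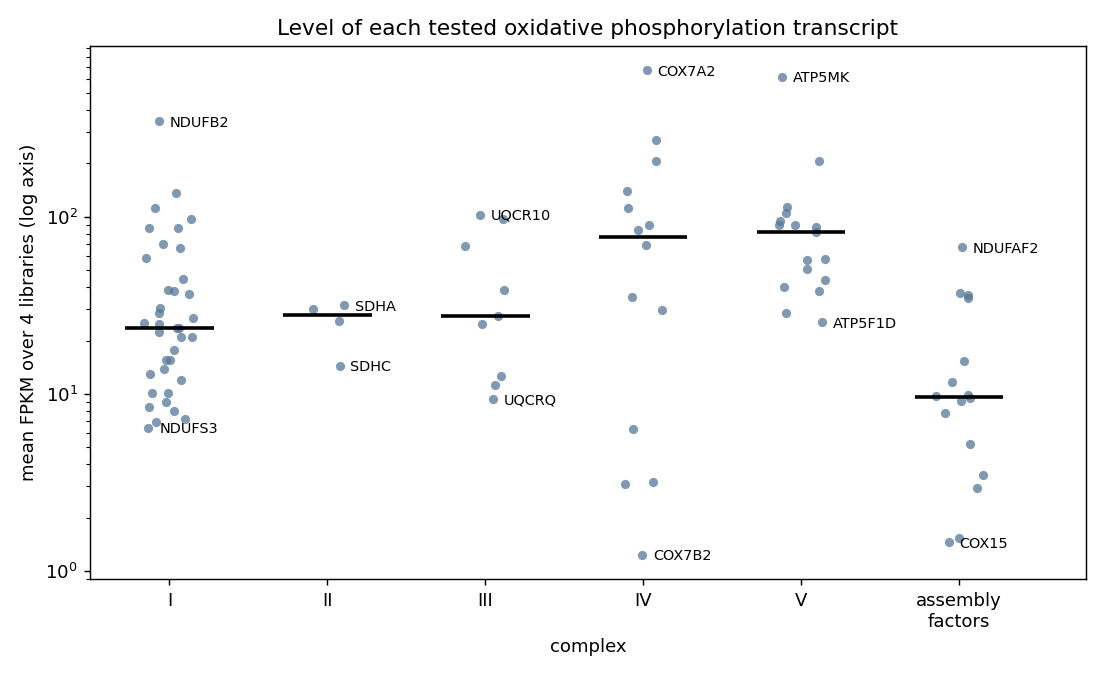
Mean FPKM over the 4 libraries (log axis) of each tested transcript, by complex; each point is 1 gene, the black bar is the median, and the highest and lowest gene of each class are named. The medians over tested genes of complexes IV and V (76.6 and 82.5 FPKM) sit above those of complexes I, II and III, and the assembly factors lie lowest, at a median of 9.62 FPKM.

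Between groups, no member passed the threshold in either direction. At a limma adjusted p under 0.05, 0 of the 99 were called, where 0.279% of all transcripts tested were called (0.19% higher and 0.0892% lower). The lowest adjusted p among members was 0.0519, for COX7A1. At an unadjusted p under 0.05, 13 members lay higher and 1 lower in KDM5_KD, and the shares over all transcripts were 14.3% and 3.12%. A log2 difference of 1 or more was found for 4 members (background 4.52%) and one of -1 or less for none (background 0.301%). These 4 were COX7A1, ATP5IF1, NDUFS4 and UQCR11. For 86 of the 99 members the 95% limma interval of the difference lay within 1 unit of 0 on the log2(FPKM + 1) scale (background 77.6%). For members at a few FPKM, 1 unit on this scale is more than a doubling of FPKM.

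The median log2 difference of the members was 0.09, and that of all transcripts tested was also 0.09. It was above 0 for 69 of the 99 members, where 62.6% of all transcripts were above 0. In both KDM5_KD libraries 39 members lay above both NC libraries (background 35.1%), and 5 lay below (background 15.6%). Among the 39, COX7A1 and COX7B2 reached the level filter only through the knockdown libraries. The 5 that lay below were the complex I subunits NDUFB2 and NDUFV1 and the complex IV assembly factors COX10, COX14 and COX19. The split depended on how the libraries were scaled. With median-ratio scaling 22 members lay above and 24 below, where 23.8% and 28.2% of all transcripts did. After quantile normalization the members numbered 31 above and 9 below (20.9% and 28.1% of all transcripts), and with a common sum of FPKM 27 and 18 (24.2% and 25.5%). The direction of the small differences therefore depended on the scaling. The median log2 difference over all transcripts shifted by -0.13, -0.14 and -0.10 under these 3 scalings. By complex, the medians of complexes II, III and V and of the assembly factors were above 0 as deposited and below 0 with median-ratio scaling and the common sum, and those of complexes I and IV stayed above 0.

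By level, the members were compared with all transcripts of the same bin. Among the 52 members in the highest level bin the median log2 difference was 0.03, against -0.02 for all transcripts of that bin. Members lay above in both knockdown libraries in 15 of these 52 cases and below in 3, while the shares over the whole bin were 21.0% and 24.5%. In the next bin down, with 24 members, the median was 0.24 for members and 0.06 for all transcripts. The bin below it held 16 members, with a median of 0.14 against 0.16 for all transcripts. The 7 members in the lowest bin had a median of 0.43, and all transcripts there one of 0.25. This bin includes COX7A1 and COX7B2, which reached the level filter only through the knockdown libraries and so raise its median.

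**Figure D2:**
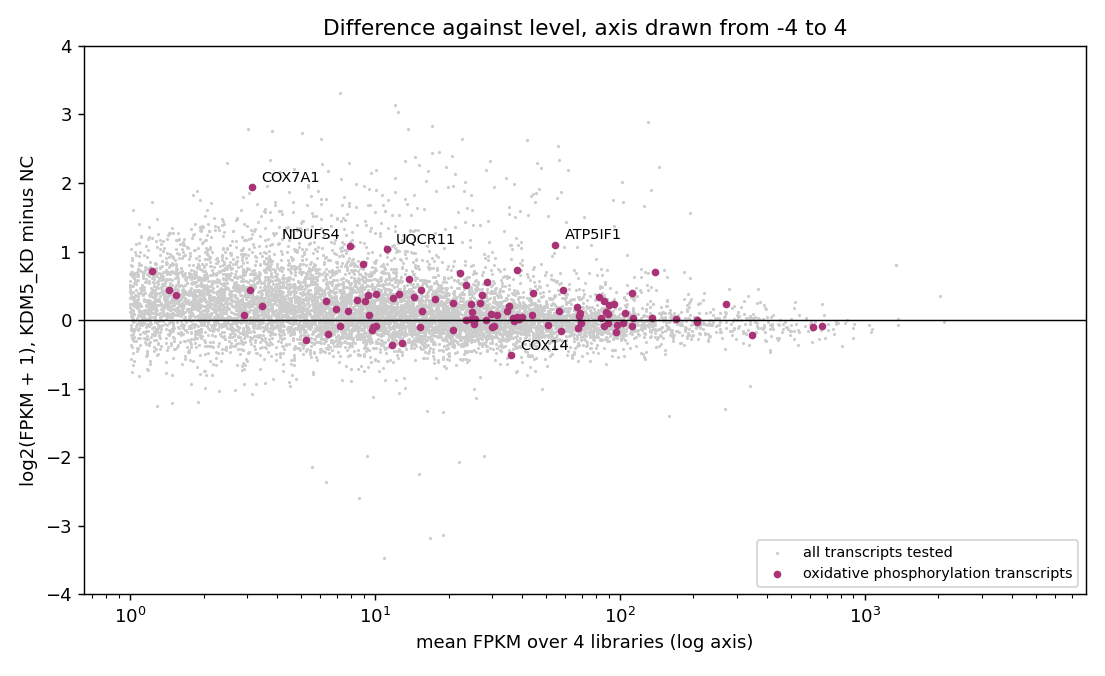
Difference between group means of log2(FPKM + 1), KDM5_KD minus NC, against the mean FPKM over the 4 libraries (log axis). Grey points are all transcripts tested, of which 8 lie outside the drawn range of -4 to 4, and purple points are the 99 members; most members lie close to 0, and COX7A1, ATP5IF1, NDUFS4 and UQCR11 lie above 1.

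Complex I takes electrons from NADH and is the largest complex of the chain. Of its 37 subunits, all of them tested, 17 lay higher in both knockdown libraries (background 35.1%) and 2 lower (background 15.6%), and none was called. The median log2 difference was 0.14. NDUFS4, an accessory subunit needed to attach the NADH-oxidising module, was at 4.91 and 4.60 FPKM in controls, against 11.04 and 11.27 FPKM after knockdown. The replicates of each group were close together and the groups were well apart, with a log2 difference of 1.08 (SE 0.173, limma adjusted p of 0.0953). NDUFA7, an accessory subunit near the same module, was at 6.33 and 6.06 FPKM in controls, against 9.94 and 13.6 FPKM after knockdown (log2 difference 0.81, SE 0.206, limma adjusted p of 0.154).

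The catalytic subunits of complex I differed among themselves. NDUFV1 carries the flavin that accepts electrons from NADH. It was at 101 and 105 FPKM in controls, against 90.9 and 91.2 FPKM after knockdown, lower in both knockdown libraries by a log2 difference of -0.17 (limma adjusted p of 0.463). NDUFS1, the large iron-sulfur subunit next to it, was at 7.01 and 8.05 FPKM in controls, against 9.55 and 9.27 FPKM after knockdown (log2 difference 0.29, limma adjusted p of 0.447). For NDUFV1 and NDUFS1 the groups did not overlap. NDUFB2, the most abundant subunit, was at 392 and 351 FPKM in controls, against 340.5 and 298 FPKM after knockdown (log2 difference -0.22, limma adjusted p of 0.429).

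NDUFC1 and NDUFC2, neighbours in the membrane arm, were chosen after their values were seen. NDUFC1 was at 18.9 and 15.1 FPKM in controls, against 28.8 and 26.7 FPKM after knockdown (limma adjusted p of 0.141). NDUFC2 was at 8.99 and 12.6 FPKM in controls, against 17.1 and 16.4 FPKM after knockdown (limma adjusted p of 0.210).

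Complex II, succinate dehydrogenase, belongs to both the citric acid cycle and the respiratory chain. Its 4 genes showed small differences, with log2 values between -0.10 and 0.34 and a median of 0.05. SDHA, the flavoprotein that oxidises succinate, was at 33.2 and 28.2 FPKM in controls, against 33.5 and 31.5 FPKM after knockdown. SDHB, the iron-sulfur subunit, was at 29.0 and 33.1 FPKM in controls, against 24.9 and 33.5 FPKM after knockdown. Both overlapped between groups. SDHC, a membrane anchor, was the only one that did not overlap, at 12.999 and 12.249 FPKM in controls, against 15.2 and 17.4 FPKM after knockdown (log2 difference 0.34, SE 0.157, limma adjusted p of 0.335). The 95% limma intervals of all 4 lay within 1 log2 unit of 0.

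Complex III passes electrons from ubiquinol to cytochrome c. Its catalytic genes overlapped between groups. CYC1, cytochrome c1, was at 46.2 and 30.8 FPKM in controls, against 40.3 and 36.6 FPKM after knockdown. UQCRFS1, the Rieske iron-sulfur protein, was at 60.3 and 73.1 FPKM in controls, against 66.4 and 71.9 FPKM after knockdown. The 95% limma interval of the log2 difference ran from -0.48 to 0.53 for CYC1 and from -0.28 to 0.40 for UQCRFS1. UQCRC1, a core protein, was at 26.9 and 22.4 FPKM in controls, against 23.5 and 26.5 FPKM after knockdown. Its partner UQCRC2 did not overlap, at 9.91 and 11.6 FPKM in controls, against 12.6 and 16.2 FPKM after knockdown (log2 difference 0.38, limma adjusted p of 0.367).

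The small complex III subunit UQCR11 had the largest difference of this complex, but its control libraries disagreed. It was at 10.3 and 4.37 FPKM in controls, against 16.8 and 13.5 FPKM after knockdown (log2 difference 1.04, SE 0.358, limma adjusted p of 0.227). Without NC replicate 2 the log2 difference was 0.50, and without NC replicate 1 it was 1.58 with a limma adjusted p of 0.0288. UQCRQ, which binds ubiquinone, was at 7.98 and 8.09 FPKM in controls, against 9.85 and 11.6 FPKM after knockdown (limma adjusted p of 0.340). In all, 4 of the 9 genes of complex III lay higher in both knockdown libraries (background 35.1%) and none lower (background 15.6%). Cytochrome c itself, CYCS, was at 154 and 185 FPKM in controls, against 171 and 171 FPKM after knockdown, a log2 difference of 0.02 with a 95% limma interval from -0.30 to 0.34.

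**Figure D3:**
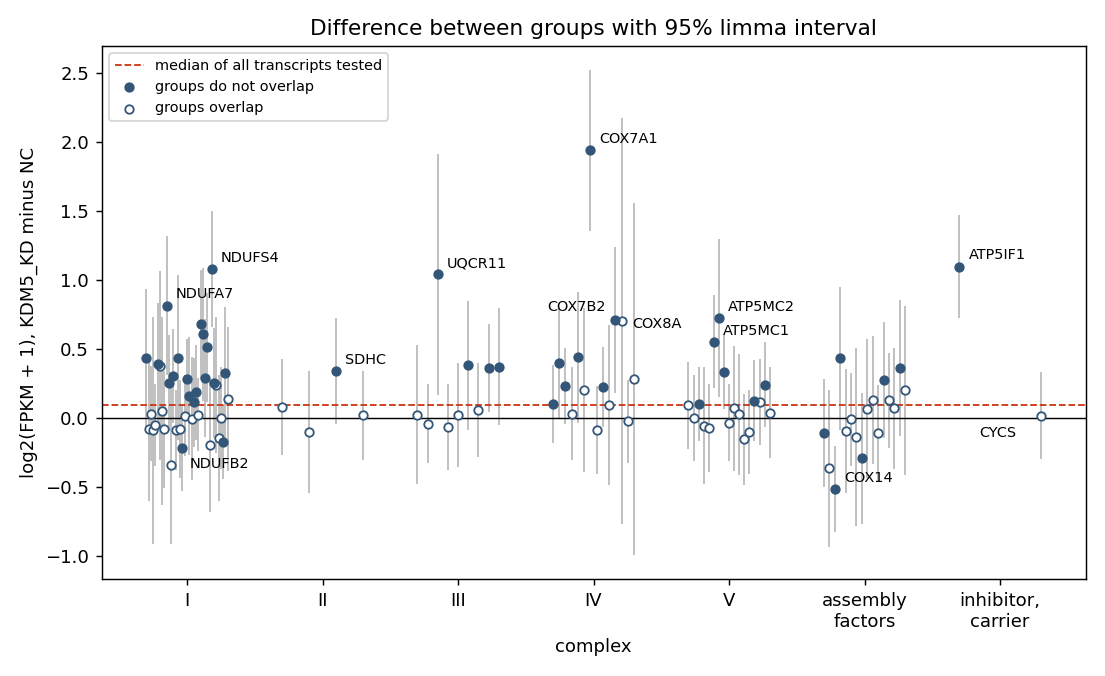
Difference of log2(FPKM + 1), KDM5_KD minus NC, for each tested member by complex, with the inhibitor ATP5IF1 and the carrier CYCS apart; bars are 95% limma intervals, filled points are genes whose groups do not overlap, and the dashed line is the median of all transcripts tested (0.09). COX7A1 stands highest at 1.94 and COX14 lowest at -0.51, and most intervals include 0.

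Complex IV reduces oxygen to water, and several of its nuclear subunits exist as paralogous isoforms used in different tissues. Of its 17 genes, 14 were tested, 7 lay higher in both knockdown libraries (background 35.1%) and none lower (background 15.6%), and the median log2 difference was 0.23. A member with a low level passes the filter more easily when 1 group is high, so counts over the tested genes do not describe all 17. The widely used isoforms carried nearly all of the signal. COX4I1, which assembles early with the catalytic core, was at 64.4 and 69.0 FPKM in controls, against 73.24 and 69.99 FPKM after knockdown (log2 difference 0.10, limma adjusted p of 0.705). COX5B, which binds zinc on the matrix side, was at 82.4 and 112 FPKM in controls, against 127 and 126 FPKM after knockdown (log2 difference 0.40, SE 0.165, limma adjusted p of 0.290). The difference was 0.18 without NC replicate 1 and 0.62 without NC replicate 2. COX6A1 was at 238 and 262 FPKM in controls, against 299 and 288 FPKM after knockdown (log2 difference 0.23, limma adjusted p of 0.358).

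COX7A1, the isoform of subunit 7A typical of heart and skeletal muscle, had the largest difference of all members. It reached the level filter only through the knockdown libraries, both controls being below 1 FPKM, so its test depends on that filter. It was at 0.839 and 0.580 FPKM in controls, against 4.64 and 6.58 FPKM after knockdown. The knockdown mean was 7.91 times the control mean, with a log2 difference of 1.94 (SE 0.238, 95% limma interval 1.36 to 2.52, limma adjusted p of 0.0519). The adjusted p was below 0.05 in 4 of 10 alternative settings with all libraries (range 0.0281 to 0.249). It was 0.249 without a filter, and at the stricter filter of 5 FPKM the gene was not tested. With a library left out it was 0.0259 without NC replicate 1 and between 0.0938 and 0.267 without each of the others. Even in KDM5_KD this isoform stayed far below its ubiquitous partner COX7A2, at 0.716% and 1.01% of that gene's level, after 0.133% and 0.0769% in NC. COX7A2 itself overlapped between groups, at 632 and 754 FPKM in controls, against 648 and 653 FPKM after knockdown. The third paralog COX7A2L, known for its part in joining complexes III and IV, was at 85.9 and 80.4 FPKM in controls, against 102 and 92.6 FPKM after knockdown (limma adjusted p of 0.388).

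The other muscle isoforms were not seen. COX6A2 and COX8B were listed at 0 in all 4 libraries, and COX4I2, an isoform known from lung, was between 0.205 and 0.505 FPKM, so these 3 were not tested. COX6B2 and COX7B2 are known as testis isoforms. COX6B2 was at 2.57 and 2.38 FPKM in controls, against 3.81 and 3.61 FPKM after knockdown, between 2.61% and 4.46% of its partner COX6B1. COX7B2 was at 0.826 and 0.560 FPKM in controls, against 1.98 and 1.56 FPKM after knockdown (log2 difference 0.71, limma adjusted p of 0.195), between 1.58% and 7.35% of COX7B. Like COX7A1, it reached the level filter only through the knockdown libraries, so its test depends on that filter. The partners COX6B1 (75.3 and 91.1 FPKM in NC, 88.5 and 81.1 in KDM5_KD) and COX7B (22.8 and 35.5 in NC, 26.9 and 34.4 in KDM5_KD) overlapped between groups.

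COX8A and NDUFA4L2 each had 1 knockdown library apart from the other. COX8A was at 98.6 and 83.8 FPKM in NC, at 72.6 FPKM in KDM5_KD replicate 1 and at 303 FPKM in KDM5_KD replicate 2. Its log2 difference was 0.70 (SE 0.602), and -0.32 without KDM5_KD replicate 2. With COX8A left out, the summed FPKM of complex IV was 1440 and 1665 in NC and 1653 and 1582 in KDM5_KD. NDUFA4L2, known as a hypoxia-induced paralog, was at 6.301 and 4.002 FPKM in controls, against 11.9 and 3.20 FPKM after knockdown, and its log2 difference of 0.28 became -0.53 without KDM5_KD replicate 1. NDUFA4 was at 197 and 220 FPKM in controls, against 216 and 193 FPKM after knockdown.

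**Figure D4:**
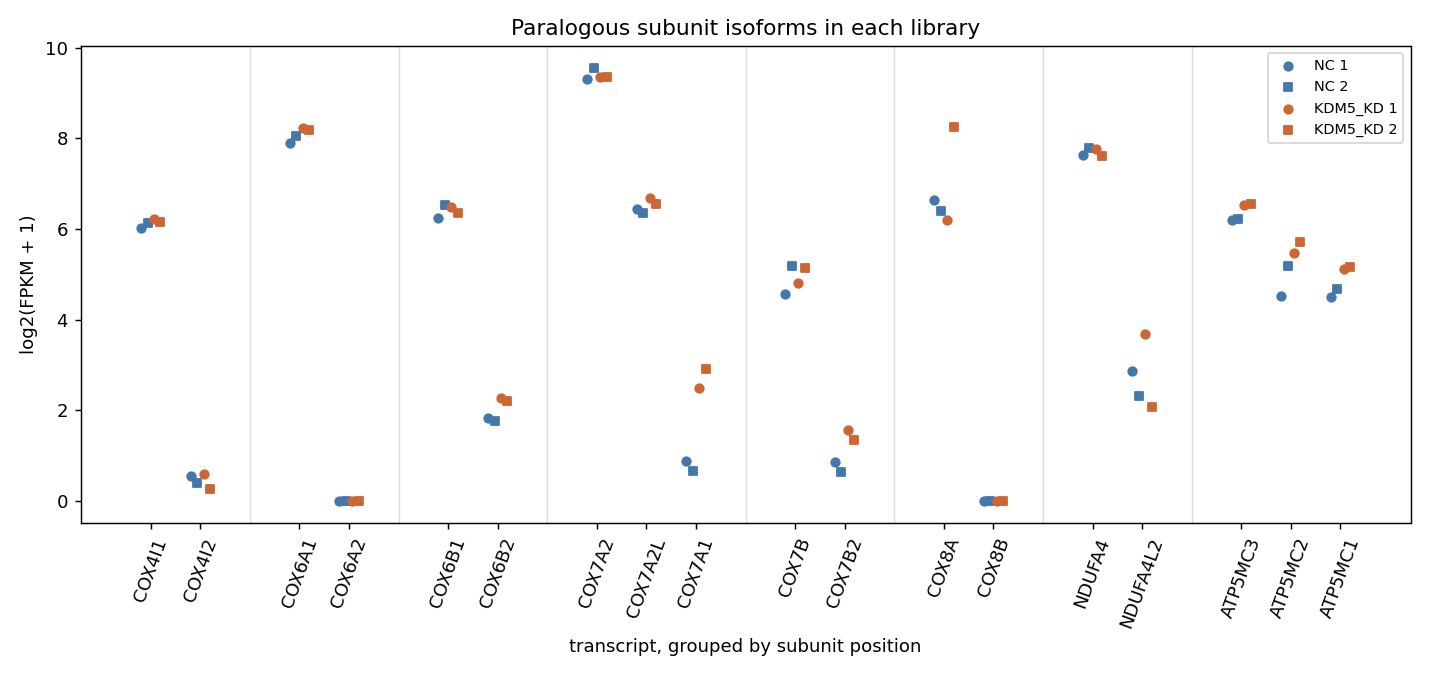
Level of each paralogous isoform as log2(FPKM + 1) in each library, grouped by subunit; blue is NC, orange is KDM5_KD, circles are replicate 1 and squares replicate 2. COX6A2 and COX8B lie at 0 in all 4 libraries, COX7A1 is far below COX7A2 in every library, and COX8A is high in KDM5_KD replicate 2 alone.

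Complex V makes ATP with a rotating ring of c subunits in the membrane that drives the catalytic F1 head. Of its 17 subunits, 6 lay higher in both knockdown libraries (background 35.1%), none lay lower (background 15.6%), and the median log2 difference was 0.07. All of them but ATP5F1D were in the highest level bin, where the shares over all transcripts were 21.0% and 24.5%. The catalytic subunits overlapped between groups. ATP5F1A was at 87.2 and 85.7 FPKM in controls, against 100.3 and 84.8 FPKM after knockdown, and ATP5F1B at 192 and 222 FPKM in controls, against 217 and 197 FPKM after knockdown. The 95% limma intervals of their log2 differences ran from -0.22 to 0.41 and from -0.31 to 0.31. ATP5MK, the most abundant, was at 614 and 660 FPKM in controls, against 634 and 555 FPKM after knockdown.

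The 3 genes of the c ring encode the same mature protein with different import sequences. All of them lay higher in both knockdown libraries (background 35.1%, and 21.0% in the highest level bin, which holds all 3). ATP5MC1 was at 21.5 and 24.8 FPKM in controls, against 34.0 and 34.7 FPKM after knockdown (log2 difference 0.55, SE 0.138, limma adjusted p of 0.153). ATP5MC2 was at 22.2 and 35.6 FPKM in controls, against 43.4 and 51.2 FPKM after knockdown (log2 difference 0.72, SE 0.235, limma adjusted p of 0.210). The difference was 0.39 without NC replicate 1 and 1.06 without NC replicate 2. ATP5MC3, the most abundant of the 3, was at 72.2 and 73.6 FPKM in controls, against 92.0 and 92.2 FPKM after knockdown (log2 difference 0.33, SE 0.110, limma adjusted p of 0.211). Their summed level was 116 and 134 FPKM in NC and 169 and 178 FPKM in KDM5_KD. No c-ring gene passed the threshold over all transcripts. With the other scalings of the libraries their log2 differences were at least 0.19.

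The other parts of the synthase showed smaller differences. The median log2 difference was 0.00 over the 5 genes of the F1 head and central stalk, 0.12 over the 4 of the peripheral stalk and -0.04 over the 5 small membrane subunits. ATP5IF1, the inhibitor that keeps the F1 head from breaking down ATP when the proton gradient is lost, stood apart from the subunits. It was at 37.3 and 31.6 FPKM in controls, against 81.7 and 68.1 FPKM after knockdown. The knockdown mean was 2.18 times the control mean (log2 difference 1.10, SE 0.152, 95% limma interval 0.73 to 1.47), with a limma adjusted p of 0.0760 that missed the threshold. It was below 0.05 with robust eBayes (limma adjusted p of 0.0438) and without NC replicate 1 (limma adjusted p of 0.0228).

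COX7A1, ATP5IF1, NDUFS4 and the c-ring genes lay higher in the same 2 libraries in which the summed cumulus and granulosa markers and the summed oocyte markers were higher. These members are listed because they lay higher in both knockdown libraries, so the shared direction was fixed by that choice. Of the 11 oocyte transcripts, 5 lay higher in both (background 35.1%). The part of these cell type markers in the differences was not tested, and in whole embryos more cells of a type and more RNA per cell cannot be told apart.

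**Figure D5:**
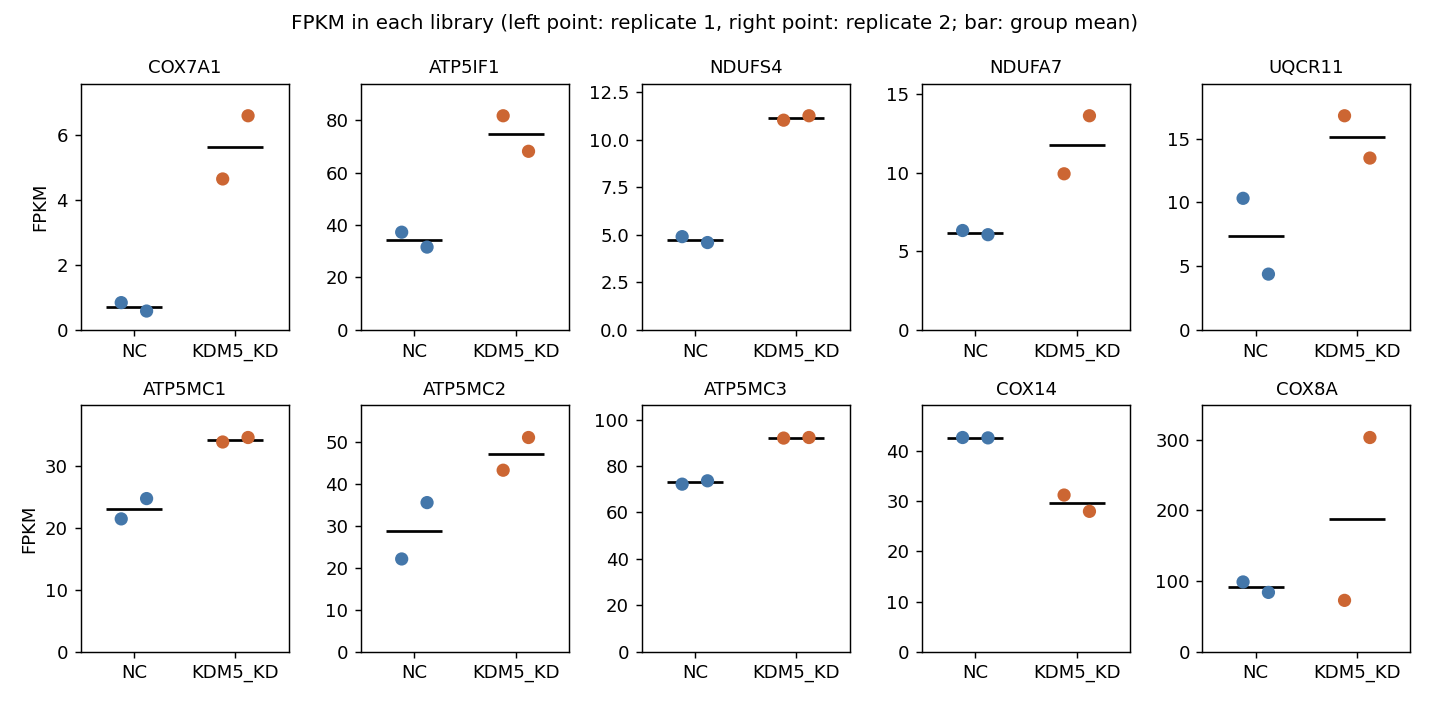
FPKM of 10 members in each library, on axes that start at 0; points are libraries, blue for NC and orange for KDM5_KD, and bars are group means. For COX7A1, ATP5IF1, NDUFS4, NDUFA7, UQCR11 and the 3 ATP5MC genes both knockdown libraries lie above both controls, COX14 lies below, and COX8A is high in 1 knockdown library.

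The assembly factors among the members were divided. Of the 16, 3 lay higher (background 35.1%) and 3 lower (background 15.6%) in both knockdown libraries. The 7 factors of complex I had a median log2 difference of 0.13, and the 9 of complex IV one of -0.11. COX14, which holds newly made catalytic subunit of complex IV, was at 42.7 and 42.6 FPKM in controls, against 31.23 and 27.98 FPKM after knockdown. This was the largest negative difference of any member, at 69.4% of the control mean (log2 difference -0.51, SE 0.129, 95% limma interval -0.83 to -0.20, limma adjusted p of 0.152). COX19, which takes part in copper delivery to complex IV, was at 6.10 and 5.58 FPKM in controls, against 4.18 and 5.02 FPKM after knockdown (limma adjusted p of 0.491). NDUFAF3, a complex I factor, was at 8.31 and 7.96 FPKM in controls, against 9.43 and 10.7 FPKM after knockdown (limma adjusted p of 0.463). The most abundant factor was NDUFAF2, at 64.6 and 75.3 FPKM in controls, against 59.7 and 69.8 FPKM after knockdown. The least abundant was COX15, a heme A synthesis enzyme, at 1.28 and 0.902 FPKM in controls, against 1.74 and 1.89 FPKM after knockdown.

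Neighbouring genes of the pathway were compared through 4 lists, and none of their transcripts was called. Over all transcripts tested, 35.1% lay higher in both knockdown libraries and 15.6% lower, and the counts of each list stand beside these shares. Assembly factors whose names fall outside the rule had 40 transcripts tested. Of these 12 lay higher (background 35.1%) and 11 lower (background 15.6%), with a median log2 difference of 0.03. Among the 12, DMAC1 and DMAC2L reached the level filter only through the knockdown libraries, their controls being below 1 FPKM. UQCC2, a complex III factor, was at 6.57 and 10.9 FPKM in controls, against 10.7 and 16.7 FPKM after knockdown, and SDHAF1, a complex II factor, at 8.43 and 10.8 FPKM in controls, against 7.07 and 4.39 FPKM after knockdown (limma adjusted p of 0.360 and 0.263). Coenzyme Q synthesis had 11 transcripts tested, with 6 higher (background 35.1%), none lower (background 15.6%) and a median of 0.20. The median level of this list was 3.45 FPKM, which falls in the lowest level bin. There 48.0% of all transcripts lay higher and 9.01% lower, with a median log2 difference of 0.25. COQ10B, a coenzyme Q carrier protein, was at 3.54 and 4.22 FPKM in controls, against 6.59 and 8.32 FPKM after knockdown (limma adjusted p of 0.159). COQ3, a methyltransferase of the same pathway, was at 18.2 and 20.9 FPKM in controls, against 17.9 and 20.1 FPKM after knockdown.

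Regulators of mitochondrial transcription and biogenesis had 19 transcripts tested, of which 5 lay higher (background 35.1%) and 2 lower (background 15.6%), with a median log2 difference of -0.03. GABPB1, a subunit of the factor known as nuclear respiratory factor 2, was at 5.41 and 3.93 FPKM in controls, against 8.40 and 11.5 FPKM after knockdown (log2 difference 0.95, limma adjusted p of 0.152). POLRMT, the mitochondrial RNA polymerase, was at 62.3 and 53.2 FPKM in controls, against 48.2 and 44.2 FPKM after knockdown (log2 difference -0.31, limma adjusted p of 0.311). NRF1 and TFAM, picked after their values were seen as textbook regulators of these genes, had log2 differences of -0.12 and -0.04 and overlapped between groups. Other regulators of the list did not overlap, among them PPARGC1A (log2 difference 0.41, limma adjusted p of 0.369) and GABPA (-0.15, limma adjusted p of 0.554). Among carriers and other electron donors 16 transcripts were tested, with 7 higher (background 35.1%), 1 lower (background 15.6%) and a median of 0.20. VDAC2, a channel of the outer mitochondrial membrane, was at 21.5 and 16.8 FPKM in controls, against 54.0 and 43.0 FPKM after knockdown (log2 difference 1.30, limma adjusted p of 0.0788). The adjusted p of VDAC2 was 0.0438 with robust eBayes and 0.0183 without NC replicate 1, and between 0.0577 and 0.254 in the other settings. DHODH, which feeds electrons into ubiquinone during pyrimidine synthesis, was at 10.5 and 9.83 FPKM in controls, against 9.34 and 8.01 FPKM after knockdown (limma adjusted p of 0.580).

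Gaps between the replicates of a group are given beside the differences between groups. NC replicate 1 lay above NC replicate 2 for 44 of the 99 members (44.4%), where it did so for 55.8% of all transcripts tested. The median absolute log2 gap was 0.18 between the NC libraries and 0.15 between the KDM5_KD libraries over the members. The median absolute difference between group means was 0.14. A mean of 2 libraries varies less than 1 library does, so the gaps and this difference cannot be compared directly.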

How the data were processed

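The authors' deposited table holds FPKM values for 14517 RefSeq transcript accessions in 4 columns, 1 per library. Per the submitters' processing notes, Trimmomatic, HISAT2, featureCounts and Cufflinks were used. Their roles, the genome build and the annotation are not given in the sources used here, so no positions are given. The smallest value above 0 is 4.83e-141, so reads can have been split among transcripts by estimation, and a listed 0 may be a failed estimate. Read counts are unknown. Between 45.1% and 53.1% of the ratios between libraries of values from 0.001 to 0.3 FPKM lay within 0.5% of a ratio of small whole numbers. From these steps NC replicate 2 was 1.46 times as deep as NC replicate 1, and the KDM5_KD libraries had 0.802 and 0.782 times the depth of NC replicate 2.

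Symbols came from a RefSeq gene table (ARS-UCD2.0) and matched 14295 accessions. Sequences were not used here. Groups were taken from the sample titles. The test was limma (3.58.1, R 4.3.3), applied to log2(FPKM + 1) with eBayes and a trend on mean level, over the 8970 transcripts with a mean of at least 1 FPKM, without covariates, with Benjamini-Hochberg adjustment over all of them. The pseudocount of 1 understates differences of low transcripts. No set test was run. The fit was tested on simulated data. Summaries used Python 3.11.15 with pandas 2.3.3, and figures matplotlib 3.10.9.

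Members named with values were core subunits, paralogous isoforms, the highest and lowest level of each class, and in each class up to 2 per direction with the largest difference among those with a mean of at least 5 FPKM and no overlap between groups. In the other lists the largest difference per direction among transcripts with a mean of at least 5 FPKM was named. A gene that this rule names is not reported here. The members and lists were chosen with earlier results of these data known. Alternatives tried were the pseudocount 0.1, dropping the filter or raising it to a mean of 5 FPKM, median-ratio scaling, quantile normalization, a common sum, eBayes without a trend or robust, a replicate block, rows summed by symbol and leaving out each library. A common sum without microRNA rows was added after seeing the data.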

Additional observations from a re-analysis of the deposited data

How the results depend on the processing

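Over all transcripts, 17 were called higher and 8 lower. The calls numbered 2 and 1 without a filter, and those called higher were 11 at a filter of 5 FPKM, 7 with a common sum, 6 without a trend and 37 with robust eBayes. With 1 library left out they ranged from 3 to 323 higher (323 without NC replicate 1) and from 3 to 17 lower. No member was called in the reported fit. Median-ratio scaling, rows summed by symbol and the common sum without microRNA rows each called 1 (COX7A1), robust eBayes 2 (with ATP5IF1), and leaving out 1 library 0 to 3 (with UQCR11, without NC replicate 1). The limma test called KDM5A at a log2 difference of -1.35, but not without a filter (adjusted p of 0.167) or a trend (0.0605), and with 1 library left out it ran from -1.38 to -1.32 and was called only without NC replicate 1. KDM5C ran from -1.26 to -0.74 and was called without NC replicate 1 (limma adjusted p of 0.0265). A left-out library leaves a group with 1 sample, which is assumed to vary like the other group. Leaving out 1 library also moved the log2 difference by over 1.5 times for COX19 (-0.40 to -0.18), COX4I1 (0.053 to 0.15), NDUFB2 (-0.32 to -0.12), UQCRC2 (0.21 to 0.55), DHODH (-0.31 to -0.11), POLRMT (-0.42 to -0.20), SDHAF1 (-0.97 to -0.38) and UQCC2 (0.28 to 0.93). The cause of these shifts was not tested, and with 2 libraries a group and unknown read counts the precision is limited by the number of libraries.

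Replicate numbers are shared between groups, but the labels do not say that they mark a batch. Deviations of samples with the same number correlated at 0.229 across 8970 transcripts, which are not independent. With a replicate block, 8 transcripts were called higher and 4 lower and no member was called. KDM5A missed the threshold there at -1.35 (limma adjusted p of 0.0591).

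With median-ratio scaling the median log2 difference was 0.00039 for complex I, -0.089 for complex II, -0.085 for complex III, 0.086 for complex IV, -0.070 for complex V and -0.10 for assembly factors. With quantile normalization the median log2 difference was 0.026 for complex I, -0.0091 for complex II, 0.15 for complex IV and -0.12 for assembly factors. With a common sum the median log2 difference was 0.029 for complex I, -0.064 for complex II, -0.058 for complex III, 0.11 for complex IV, -0.044 for complex V and -0.082 for assembly factors. With a filter of 5 FPKM the median log2 difference was -0.10 for assembly factors. The sign turned under median-ratio scaling for ATP5F1A (-0.050), ATP5F1B (-0.14), COX4I1 (-0.040), COX6B1 (-0.11), COX7B (-0.046), CYC1 (-0.12), CYCS (-0.12), SDHA (-0.058), UQCRC1 (-0.12) and UQCRFS1 (-0.085). The sign turned under a common sum for ATP5F1A (-0.023), ATP5F1B (-0.12), COX4I1 (-0.013), COX6B1 (-0.084), COX7B (-0.019), CYC1 (-0.091), CYCS (-0.10), SDHA (-0.032), UQCRC1 (-0.093) and UQCRFS1 (-0.058). The sign turned under a common sum without microRNA rows for ATP5F1B (-0.021) and CYCS (-0.0035). The sign turned under quantile normalization for COX7A2 (0.027), CYC1 (-0.026) and UQCRC1 (-0.043). With 1 library left out the median log2 difference ran from 0.095 to 0.17 for complex I, 0.090 to 0.28 for complex III and -0.014 to 0.14 for complex V. With 1 library left out, the log2 differences that could take either sign were those of ATP5F1A -0.027 to 0.21, ATP5F1B -0.11 to 0.11, ATP5F1D -0.25 to 0.14, COQ3 -0.13 to 0.059, COX6B1 -0.11 to 0.17, COX7A2 -0.21 to 0.041, COX7B -0.21 to 0.40, COX8A -0.32 to 1.73, CYC1 -0.26 to 0.31, CYCS -0.11 to 0.15, NDUFA4 -0.10 to 0.056, NDUFA4L2 -0.53 to 1.09, NDUFAF2 -0.22 to 0.0027, SDHA -0.033 to 0.20, SDHB -0.31 to 0.11, UQCR10 -0.11 to 0.028, UQCRC1 -0.10 to 0.15 and UQCRFS1 -0.079 to 0.19.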
